A study of Mus musculus with 17 samples.

Results

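Messenger RNA abundance was compared between heart muscle cells lacking MBNL1 function (KO) and wild-type cells (WT) that had spent 4 h in actinomycin D, a drug that binds DNA and stops transcription. The comparison held 5 of the 17 libraries of the series, 3 KO and 2 WT, chosen by their labelled genotype and time alone; the other 12 libraries were KO and WT cells harvested at 0 h and at 8 h, 3 in each group. All cells were ventricular myocytes of 60-day-old mice. They were freed with the enzyme mix Liberase on a Langendorff heart, attached to laminin over 3 h and then moved to a medium holding 2 µg/mL actinomycin D, butanedione monoxime and albumin, which both genotypes received. The labels describe the KO only as MBNL1 loss-of-function and the WT only as control, with no allele, Cre driver, strain or sex, and they leave unsaid if each library of a group is a different animal. The p-values thus rest on library-to-library spread, which may be technical.

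MBNL1 is a muscleblind zinc finger protein that binds RNA motifs built around the bases YGC. In muscle it is known for steering the postnatal switch of alternative splicing towards adult isoforms, and it also binds 3′ untranslated regions, where it affects the localisation and lifetime of transcripts. Under a complete transcription block no new transcript is made, so a level at 4 h would be what remains of the RNA present when the drug was added. The completeness of the block was not tested. A difference between genotypes at 4 h holds both the difference already there before the drug and any difference in loss, or in remaining synthesis, since. Each level is a share of the library, in CPM (counts scaled to a common library size) after TMM scaling, not an amount per cell.

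The 5 libraries held 17290793 to 17796052 counts each. Transcripts of the mitochondrial genome took 36.0 to 37.5% of counts in KO libraries and 38.4 to 39.5% in WT libraries, and cytosolic ribosomal protein genes took 1.13 to 1.18% in KO and 0.915 to 0.953% in WT. The first principal component, with 60.7% of the variance over these libraries, set the 3 KO libraries apart from both WT libraries, and the second, with 14.1%, lay between WT replicates 1 and 2. Within a genotype the squared differences between libraries were 1.27 to 1.7 times those of Poisson counting at the median gene, against 4.73 to 5.87 times between genotypes, so no library was a copy of another.

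The genotypes differed widely at 4 h. Of 13229 genes tested, 4227 (32.0%) passed an adjusted p of 0.05, with 1931 higher in KO (14.6%) and 2296 lower (17.4%). Most of the differences were small: 3009 of the 4227 were under 1.5-fold, the median size was 1.32-fold, and only 178 were more than 2-fold higher and 355 more than 2-fold lower. The number lower was 1324 without WT replicate 1 and 1464 without WT replicate 2, and 1498 in DESeq2. Scaled by library size alone, the split became 1432 higher and 2694 lower. Scaled on ribosomal protein genes, whose own share differed between the genotypes, the median log2 difference was lowered by 0.36 and the split was 332 higher and 7434 lower, so directions below are relative to the TMM scale, on which the median over all genes was -0.04.

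**Figure D1:**
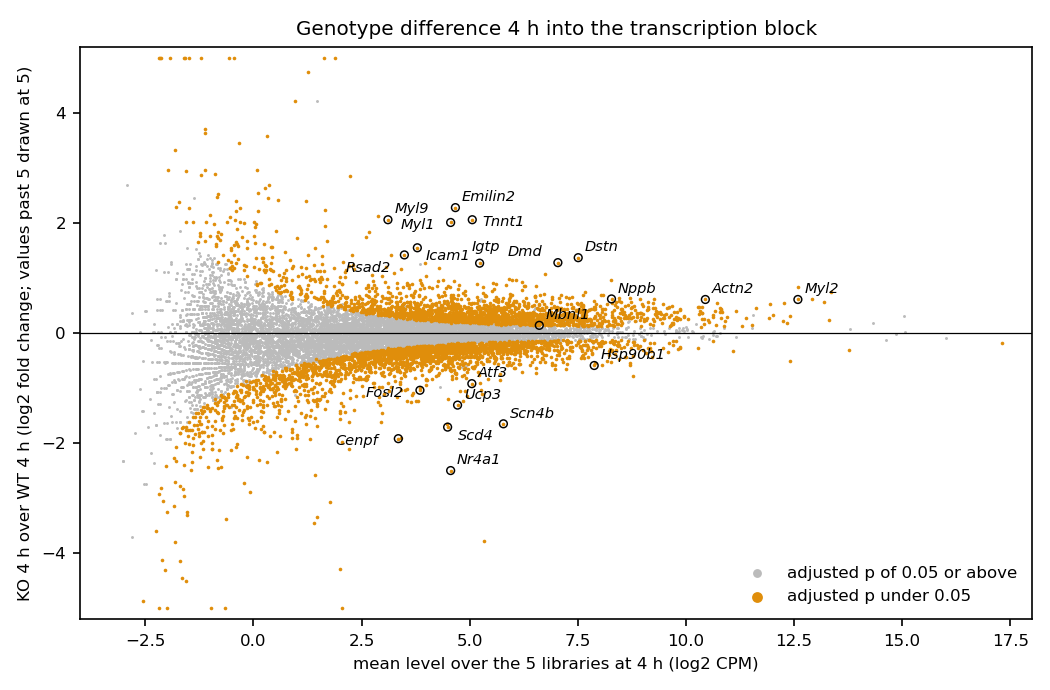
Each point is 1 tested gene, with its mean level over the 5 libraries (log2 CPM) on the x axis and its KO 4 h over WT 4 h difference (log2 fold change) on the y axis; orange points passed an adjusted p of 0.05 in edgeR and Esr1 is left out. Named points such as Emilin2 at 2.28 and Nr4a1 at -2.50 lie far outside the band of most genes, while Mbnl1 lies close to 0.

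The gene named in the genotype, Mbnl1 (chromosome 3, 60472830 to 60629750, plus strand, GRCm38), was not lower in KO. Its level was 100, 100 and 105 CPM in the 3 KO libraries and 92.9 and 91.3 CPM in the 2 WT libraries. The groups did not overlap and KO was 1.10-fold higher (log2 0.14 ± 0.05 SE, adjusted p = 0.0329), although with ribosomal protein scaling the value was -0.22. Groups without overlap were the usual state here, in 7065 of all tested genes (53.4%) and in 98.3% of the called ones. Absence of overlap thus says little about a single gene. The call was lost without KO replicate 3 (adjusted p = 0.138), without WT replicate 2 (adjusted p = 0.0725) and by library size alone (adjusted p = 0.289). Counts over the whole gene do not show whether a part of it was deleted, since exon-level counts were not analysed here, so the labelled genotype was not checked by this value. Its paralogue Mbnl2 was at 159, 157 and 150 CPM in KO and 163 and 153 CPM in WT, with overlapping groups (log2 -0.03 ± 0.05, adjusted p = 0.761; the sign turned to 0.05 without WT replicate 1). Mbnl3 had 1, 0 and 2 counts in KO and 2 and 1 in WT and was not tested.

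Esr1, which encodes oestrogen receptor alpha (chromosome 10, 4611593 to 5005614, plus strand), separated the genotypes most. It had 41185, 40454 and 37853 counts in the KO libraries and 2 and 0 counts in the WT libraries. The ratio of its summed shares was 39042 (exact 95% interval 10808 to 322384, counting error only). The labels name no transgene, and the source of these reads was not tested.

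The 15 highest genes included 3 of contractile proteins, Tnnt1, Myl1 and Myl9. For the 15 highest and 15 lowest genes the absence of overlap between groups was a condition of choice, so it is a description only. Emilin2, an extracellular matrix glycoprotein of elastic fibres (chromosome 17, 71252172 to 71311978, minus strand), had 48.1, 47.9 and 46.6 CPM in KO and 10.1 and 9.55 CPM in WT. Each KO library was far above both WT libraries, and the fold change was 4.85 (log2 2.28 ± 0.09, adjusted p = 2.9e-32). Tnnt1, the troponin T of slow skeletal muscle (chromosome 7, 4504570 to 4516382, minus strand), had 58.7, 57.1 and 60.7 CPM in KO and 12.9 and 15.3 CPM in WT. That was 4.17-fold higher, with no overlap (log2 2.06 ± 0.08, adjusted p = 5.3e-32). Myl1, an essential myosin light chain of fast skeletal muscle, had 37.0, 42.3 and 43.9 CPM in KO and 11.1 and 9.26 CPM in WT (4.02-fold, adjusted p = 2.2e-24). Myl9, the regulatory myosin light chain of smooth muscle, had 15.3, 14.3 and 16 CPM in KO and 4.37 and 2.92 CPM in WT (4.17-fold, adjusted p = 4.4e-20).

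These myosin and troponin genes belong to isoform families that the adult mouse ventricle normally uses little. The gene lists used from here on were chosen with earlier results of these data known. Their counts beside the share of all genes are thus descriptions only. Of 24 tested genes listed as fetal, skeletal or smooth-muscle contractile isoforms, 13 were higher, 3 lower and 8 not called, with a median log2 change of 0.38 (0.02 with ribosomal protein scaling, where 10 were higher and 7 lower). Further members, picked after their values were seen, were at low levels. Tnnt3, the fast skeletal troponin T, had 5.11, 5.79 and 5.36 CPM in KO and 0.345 and 0.229 CPM in WT (log2 4.21 ± 0.30, adjusted p = 9.6e-19). Tnni2, the fast skeletal troponin I, had 3.86, 4.27 and 4.64 CPM in KO and 0.632 and 0.972 CPM in WT (log2 2.40 ± 0.24, adjusted p = 1.9e-12). Tpm2, the beta-tropomyosin, was at 6.36, 7.54 and 7.02 CPM in KO and 2.30 and 2.92 CPM in WT (adjusted p = 1.2e-09). In all of these the lowest KO library exceeded the highest WT library, while groups were apart in either direction in 53.4% of all tested genes.

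The list also held 3 decreases, 2 of them in atrial light chains. The third was Myh14, a non-muscle myosin heavy chain, at 64.1, 63.6 and 61.8 CPM in KO and 74.5 and 75.3 CPM in WT (log2 -0.25 ± 0.06, adjusted p = 9.0e-04). Myl7, the atrial regulatory light chain, had 0.625, 0.526 and 1.07 CPM in KO and 3.45 and 3.20 CPM in WT (log2 -2.16 ± 0.27, adjusted p = 1.3e-09). Myl4, the atrial essential light chain, had 2.39, 2.69 and 2.86 CPM in KO and 4.88 and 4.80 CPM in WT (log2 -0.87 ± 0.18, adjusted p = 9.0e-05). Myl7 and Myl4 are also markers of atrial cells, and of 13 tested atrial and conduction markers 8 were lower and 1 higher. The lower ones included Sln, the sarcolipin that inhibits the calcium pump, at 0.170, 0.175 and 0.417 CPM in KO and 1.38 and 0.858 CPM in WT. The single increase was in Nppa, the atrial natriuretic peptide that ventricular myocytes re-express under load, at 112, 122 and 117 CPM in KO and 62.2 and 66.8 CPM in WT (log2 0.86 ± 0.06, adjusted p = 1.5e-19). The part of atrial cells in these values was not tested, and in bulk RNA fewer cells of a type and less RNA per cell cannot be told apart.

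The adult sarcomere moved by less but in more of its genes. Of 35 tested genes 21 were higher, 7 lower and 7 not called, with a median of 0.27 (-0.09 with ribosomal protein scaling, where 7 were higher and 14 lower, against -0.40 for all genes there). Actn2, the alpha-actinin of the Z disc, had 1677, 1619 and 1672 CPM in KO and 1059 and 1104 CPM in WT (1.53-fold, adjusted p = 5.4e-18). Myl2, the ventricular regulatory light chain, had 6739, 7373 and 7876 CPM in KO and 5109 and 4490 CPM in WT (1.53-fold, adjusted p = 5.0e-06). Mybpc2, the fast skeletal myosin binding protein C, averaged 36.1 ± 0.333 CPM in KO (SD, n = 3) and 22.4 ± 2.60 CPM in WT (SD, n = 2). The decreases included Xirp1, an actin-binding protein of the intercalated disc, at 124, 116 and 124 CPM in KO and 153 and 157 CPM in WT (log2 -0.35 ± 0.05, adjusted p = 5.5e-08).

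Proteins that tie actin to the membrane or turn it over were among the 15 largest increases as well. Dmd, which encodes dystrophin, the link between the actin cytoskeleton and the membrane complex, had 180, 186 and 196 CPM in KO and 74.6 and 79.8 CPM in WT (2.42-fold, adjusted p = 1.1e-28). Dstn, the actin-depolymerising factor destrin, had 265, 268 and 268 CPM in KO and 102 and 104 CPM in WT (2.59-fold, adjusted p = 3.3e-32). Both pairs of groups were widely apart compared with their spread. The other increases in that set were Casq1, the calsequestrin of skeletal muscle (2.24-fold), Strn, the scaffold protein striatin (2.28-fold), Adam22 (2.30-fold), Tmem164 (2.42-fold) and Upp1, a uridine phosphorylase (2.65-fold). Icam1, an adhesion molecule for leukocytes and a target of NF-kappaB, had 20.7, 21.6 and 21 CPM in KO and 7.76 and 6.63 CPM in WT (2.93-fold, adjusted p = 6.3e-19). Among 26 tested NF-kappaB targets 7 were higher and 4 lower, 42.3% in all against 32.0% of all genes, with a median of 0.02. Icam1 was not the furthest of them: the chemokine genes Ccl7 and Cxcl1, of lower level and named after their values were seen, differed by 3.45 and 2.64 on the log2 scale. The 4 lower ones included Csf1 (log2 -0.68 ± 0.08) and Rela (log2 -0.32 ± 0.11), and the lowest value of the list was -1.45.

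**Figure D2:**
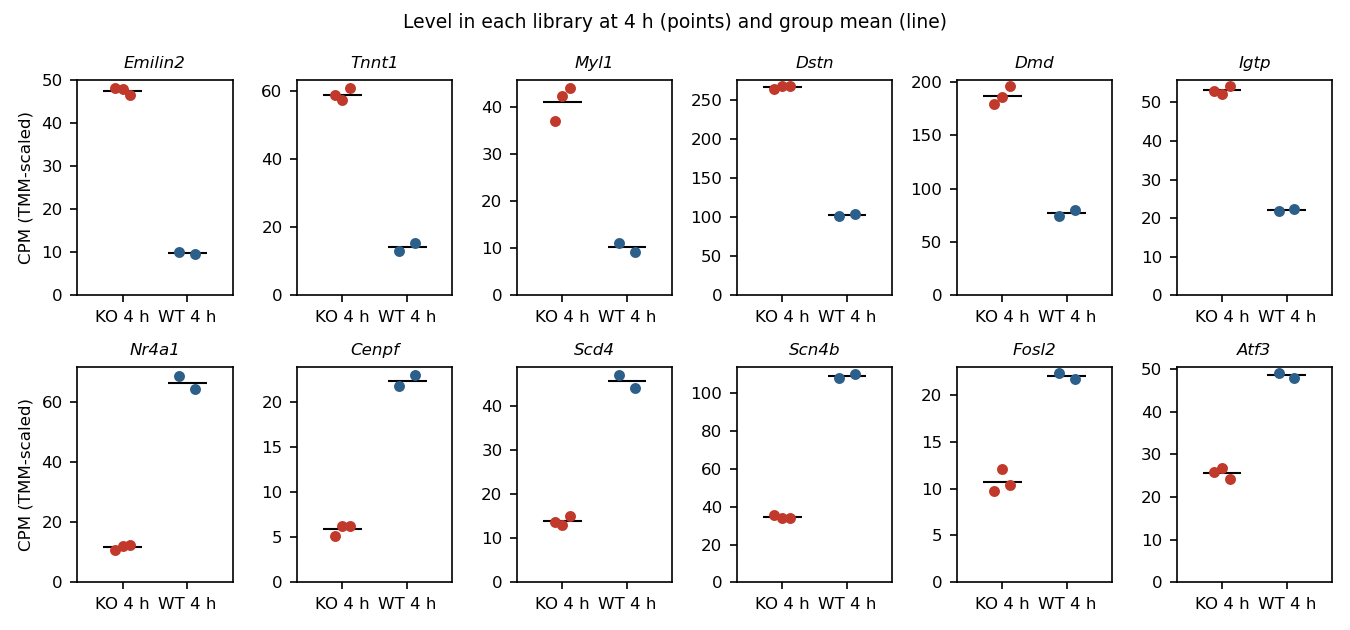
Level of 12 genes in each library at 4 h (CPM on the y axis, starting at 0; KO in red, WT in blue), with the group mean as a line. The top row holds genes higher in KO and the bottom row genes lower in KO, most of them chosen on the condition that the groups do not overlap.

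The largest decrease among the genes named was in Nr4a1, an orphan nuclear receptor induced as an immediate early gene (chromosome 15, 101254269 to 101274795, plus strand). It had 10.9, 12 and 12.4 CPM in KO and 68.7 and 64.2 CPM in WT. KO was thus 5.64-fold lower, with the groups far apart (log2 -2.50 ± 0.07, adjusted p = 1.3e-38). Its relatives Nr4a2 and Nr4a3, named after their values were seen, were lower too. Nr4a2 fell by 1.30 ± 0.29 (adjusted p = 2.2e-04) and Nr4a3 fell by 1.45 ± 0.11 (adjusted p = 6.2e-17) on the log2 scale. Immediate early genes are switched on within minutes by stress or growth signals without new protein, and their transcripts are usually short-lived.

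As a group they were lower without a single increase called. Of 35 tested immediate early genes 22 were lower, 0 higher and 13 not called, with a median of -0.43, against 17.4% lower among all genes. This list too was chosen with earlier results of these data known, so the count is a description only. Fosl2, an AP-1 subunit, had 9.72, 12.1 and 10.4 CPM in KO and 22.3 and 21.7 CPM in WT (log2 -1.04 ± 0.09, adjusted p = 1.1e-14). Atf3, a stress-induced transcription factor, had 25.9, 26.8 and 24.3 CPM in KO and 49.2 and 47.9 CPM in WT (log2 -0.92 ± 0.07, adjusted p = 4.8e-16). Both genes had also declined during the drug within each genotype, Fosl2 by 1.60 in KO and 1.35 in WT, and Atf3 by 0.88 in KO and 0.58 in WT, in log2 from 0 h. Nr4a1 had changed by -0.39 in KO and -0.34 in WT over the same time, and its genotype difference was -2.45 at 0 h.

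Neighbouring response lists leaned the same way, set against 17.4% lower and 14.6% higher among all genes. Of 27 tested p53 target and Gadd45 genes 12 were lower and 2 higher (median -0.21), among them Cdkn1a, the cell cycle inhibitor p21, at 11.4, 12.6 and 13.1 CPM in KO and 19.6 and 18.5 CPM in WT (log2 -0.62 ± 0.09, adjusted p = 1.8e-07). Btg2, an antiproliferative factor that recruits deadenylases, had 22.5, 24.4 and 21.4 CPM in KO and 40.3 and 38 CPM in WT (log2 -0.78 ± 0.07, adjusted p = 5.1e-14). It belongs to the p53 list and also to those of cell cycle exit and mRNA decay machinery genes. Sesn1, a p53 target that restrains mTORC1, went the other way at 0.45 ± 0.05 (adjusted p = 4.3e-10), a call lost with ribosomal protein scaling (0.09, adjusted p = 0.331). Of 35 tested genes of the unfolded protein and integrated stress responses, a list that also holds Atf3, 17 were lower and 3 higher (median -0.31). These included Xbp1, a transcription factor spliced on endoplasmic reticulum stress, with 18.5, 20.4 and 19.5 CPM in KO and 30.5 and 32.1 CPM in WT, and Hsp90b1, a chaperone of the endoplasmic reticulum, with 192, 204 and 205 CPM in KO and 299 and 303 CPM in WT (log2 -0.59 ± 0.05, adjusted p = 4.6e-17).

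The remaining large decreases covered metabolism, membrane excitability and signalling. Cenpf, a kinetochore protein (chromosome 1, 189640606 to 189688086, minus strand), had 5.17, 6.26 and 6.31 CPM in KO and 21.8 and 23 CPM in WT (3.79-fold lower, adjusted p = 7.6e-24). Of 28 tested cyclin, replication and mitosis genes 4 were lower and 2 higher, 21.4% in all against 32.0% of all genes. Scd4, a stearoyl-CoA desaturase of the heart, had 13.7, 13 and 15.2 CPM in KO and 47.2 and 44.3 CPM in WT (3.27-fold lower, adjusted p = 7.9e-27). Ephx1, the microsomal epoxide hydrolase, had 5.80, 6.55 and 6.37 CPM in KO and 23.1 and 23.6 CPM in WT (3.74-fold lower, adjusted p = 5.3e-25). Cpxm2, a secreted carboxypeptidase-like protein, was 3.14-fold lower (adjusted p = 3.6e-27). The mitochondrial uncoupling proteins Ucp3 and Ucp2 were both lower in KO. Ucp3 had 19.4, 17.8 and 17.7 CPM in KO and 45.4 and 45.1 CPM in WT. Ucp2 had 31.1, 27.5 and 29.8 CPM in KO and 56.3 and 54.3 CPM in WT. Thrsp, a regulator of lipogenesis (2.37-fold), Abca1, a cholesterol exporter (2.35-fold), and Fah, the last enzyme of tyrosine breakdown (2.34-fold), were lower as well. The 2 adipocyte markers tested were also called lower, with a summed level of 0.0585 to 0.114 CPM in KO and 1.49 to 2.57 CPM in WT, and the part of adipocytes in the lipid genes was not tested.

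Scn4b, a beta subunit of voltage-gated sodium channels, had 35.7, 34.3 and 34.3 CPM in KO and 108 and 110 CPM in WT (3.14-fold lower, adjusted p = 1.7e-32). Of 33 tested sodium, potassium and chloride channel and pump genes 13 were lower and 1 higher, with a median of -0.22. Among all genes 17.4% were lower and 14.6% higher. With RLE size factors 13 of the channel and pump genes were lower and 4 higher, with a median of -0.20. Itpr1, a calcium release channel gated by inositol trisphosphate, had 8.24, 6.55 and 6.91 CPM in KO and 15.9 and 16.5 CPM in WT (2.24-fold lower, adjusted p = 1.7e-14). Calcium handling genes as a whole were divided, 10 higher and 11 lower of 39, with a median of 0.01 (-0.04 by library size and -0.34 with ribosomal protein scaling). On the signalling side Sik1, a salt-inducible kinase (2.35-fold), Grk5, a kinase that desensitises beta-adrenergic receptors (1.64-fold), and Rgs2, which shortens G protein signals (1.76-fold), were all lower. Adcy5 (log2 0.32) and Prkaca (log2 0.16) were called higher. Of 24 tested adrenergic and cAMP genes 8 were lower and 4 higher, against 17.4% lower and 14.6% higher among all genes. Scaled with RLE size factors, 7 of these genes were lower and 6 higher.

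**Figure D3:**
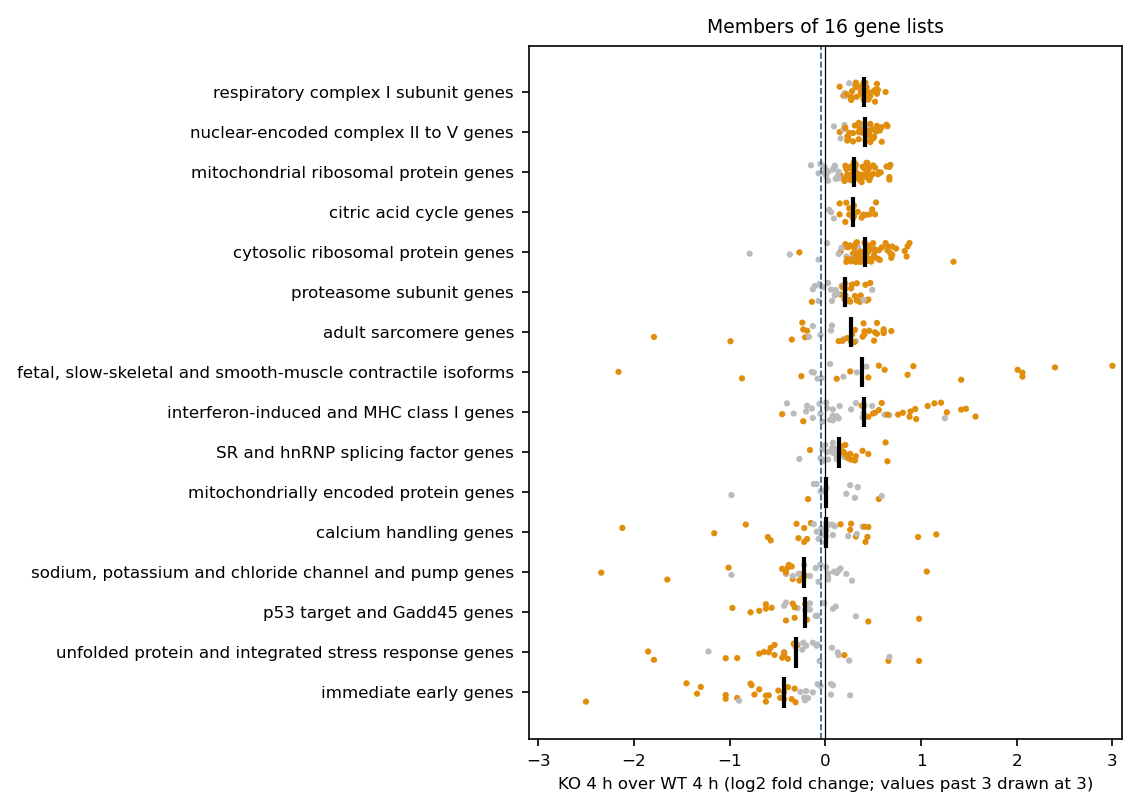
Each point is a tested member of 1 of 16 gene lists, with its KO 4 h over WT 4 h difference (log2 fold change) on the x axis; orange points passed an adjusted p of 0.05, black bars are list medians and the dashed line is the median of all tested genes at -0.04. Respiratory complex I (median 0.40) and cytosolic ribosomal protein genes (0.41) lie to the right and immediate early genes (-0.43) to the left on the TMM scale; with ribosomal protein scaling the bars move left by about 0.36, which takes the medians of mitochondrial ribosomal protein, citric acid cycle, proteasome, adult sarcomere, splicing factor, mitochondrially encoded and calcium handling genes below 0.

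Nuclear genes for the respiratory chain were higher almost throughout, each by a modest factor. Of 36 tested complex I subunit genes 32 were higher and 0 lower, against 14.6% higher among all genes, with a median of 0.40 (0.04 with ribosomal protein scaling, where 5 were higher and 2 lower). Of 43 genes of complexes II to V 37 were higher and 0 lower, with a median of 0.41 (0.06 with that scaling, where 7 were higher and 6 lower). Ndufs8, an iron-sulphur subunit of complex I, had 202, 212 and 214 CPM in KO and 136 and 150 CPM in WT (1.47-fold, adjusted p = 7.9e-08). Cox7a2, a subunit of cytochrome c oxidase, had 405, 406 and 443 CPM in KO and 268 and 268 CPM in WT (1.56-fold, adjusted p = 7.4e-14). The mitochondrial ribosome, which makes the partner subunits inside the organelle, was higher in 60 of 77 genes and lower in 0 (median 0.30, but -0.06 with ribosomal protein scaling, where 6 were higher and 18 lower). Mrpl34 had 48.1, 51.7 and 50.6 CPM in KO and 32.3 and 30.1 CPM in WT.

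The mitochondrial genome did not follow. Of its 13 protein genes 1 was called higher and 1 lower, and the median was 0.01 (-0.04 by library size and -0.35 with ribosomal protein scaling), whereas at 0 h the same genes had a median of 0.72. The 4 h difference was called higher than the 0 h one for 0 of them and lower for 0. The share of the mitochondrial genome at 0 h overlapped between genotypes, at 39.5, 43.3 and 40.3% in KO and 41.8, 38 and 36% in WT. The one called lower was mt-Co1, a catalytic subunit of cytochrome c oxidase, at 148792, 159562 and 159343 CPM in KO and 174193 and 178000 CPM in WT (log2 -0.18 ± 0.06, adjusted p = 0.0243). The one called higher was mt-Nd6, at 10728, 9844 and 12189 CPM in KO and 7525 and 7293 CPM in WT (log2 0.56 ± 0.14, adjusted p = 0.0103). It is the 1 protein gene on the other strand of the mitochondrial genome, and whether counting used strand is not given in the sources used here. Neither call was stable: without WT replicate 2 mt-Nd6 had an adjusted p of 0.0559 (0.15 with ribosomal protein scaling) and mt-Co1 one of 0.288, and mt-Co1 also missed the threshold without KO replicate 1 (0.109), without WT replicate 1 (0.151) and with the replicate number as a block (0.0518).

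Enzymes that feed the chain were higher too. The citric acid cycle was higher in 18 of 21 genes and lower in 0 (median 0.29, but -0.07 with ribosomal protein scaling, where 1 was higher and 5 lower), with Sdhb, a subunit shared with complex II, at 779, 828 and 854 CPM in KO and 573 and 566 CPM in WT (1.44-fold, adjusted p = 6.1e-13). Fatty acid uptake and oxidation was split, 15 higher and 13 lower of 36. Etfa, which passes electrons from fatty acid oxidation to the chain, was higher (692, 761 and 741 CPM in KO, 464 and 494 CPM in WT) while the 2 uncoupling proteins above were lower. Ckb, the brain-type creatine kinase, had 94.4, 96.0 and 92.8 CPM in KO and 51.9 and 48 CPM in WT (1.89-fold, adjusted p = 1.1e-20), and Gpx3, the secreted glutathione peroxidase, 151, 145 and 141 CPM in KO and 73.7 and 63.7 CPM in WT (2.12-fold, adjusted p = 4.0e-24).

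Cytosolic ribosomal protein genes were higher in 72 of 84 tested and lower in 1, with a median of 0.41 (0.05 when scaled on themselves, where 17 were higher and 7 lower). Their transcripts often begin with a C and a run of pyrimidines, the terminal oligopyrimidine tract through which translation is regulated. It is shown here for 2 members whose difference at 4 h departed from the mean of the other times, by test larger than at 8 h but not than at 0 h, with up to 80 bases before and 20 after the RefSeq start in capitals only where a C followed by at least 4 pyrimidines begins within 5 bases of that start. The stretches lie at chr16:33056402-33056501 on the plus strand (Rpl35a) and chr7:118116128-118116227 on the minus strand (Rps15a), RefSeq promoters on GRCm38.p6.
Rpl35a: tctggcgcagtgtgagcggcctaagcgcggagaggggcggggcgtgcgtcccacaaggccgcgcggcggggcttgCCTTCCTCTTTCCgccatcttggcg
Rps15a: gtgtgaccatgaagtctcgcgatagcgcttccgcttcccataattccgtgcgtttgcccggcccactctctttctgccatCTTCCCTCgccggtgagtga
Such a tract was found at a listed start of 29 of the 61 ribosomal protein genes with a promoter entry (47.5%) and of 2369 of 9903 tested genes with one (23.9%). A match is a description of these letters only.

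Among the ribosomal protein genes Rpl31 had 86.9, 98.5 and 105 CPM in KO and 51.2 and 55.7 CPM in WT (1.81-fold, adjusted p = 5.1e-10). Rpl38 had 73.1, 72.8 and 74.9 CPM in KO and 33.9 and 45.9 CPM in WT (1.85-fold, adjusted p = 5.3e-04). Rpl10 was the exception, at 169, 174 and 186 CPM in KO and 214 and 211 CPM in WT (log2 -0.27 ± 0.05, adjusted p = 5.9e-05). Many of these genes have processed pseudogenes with near-identical sequence, and how reads with several positions were counted is not given, so single values are uncertain. Proteasome subunit genes were higher in 21 of 38 and lower in 1 (median 0.21, but -0.15 with ribosomal protein scaling, where 0 were higher and 16 lower).

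Interferon-induced and MHC class I genes were higher in 20 of 50 tested and lower in 2, with a median of 0.40 (0.04 with ribosomal protein scaling, where 12 were higher and 10 lower). Interferon acts through STAT complexes on a response element in which GAAANNGAAA recurs, and this string was found on either strand in the 300-base promoter of 19 of 38 listed genes with an entry (50%), against 349 of 9903 tested genes (3.52%). It is printed in capitals for the 2 highest members that passed the level floor, within 100 bases at chr11:58199476-58199575 on the plus strand (Igtp) and chr12:26456518-26456617 on the minus strand (Rsad2, where the reverse complement is in capitals).
Igtp: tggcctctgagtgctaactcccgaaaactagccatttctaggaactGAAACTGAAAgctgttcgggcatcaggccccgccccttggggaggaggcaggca
Rsad2: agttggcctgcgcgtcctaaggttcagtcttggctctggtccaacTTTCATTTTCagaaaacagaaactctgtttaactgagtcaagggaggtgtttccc
Igtp, an immunity-related GTPase, had 52.9, 52.3 and 54.2 CPM in KO and 21.8 and 22.4 CPM in WT (2.40-fold, adjusted p = 1.0e-21). Rsad2, the antiviral enzyme viperin, had 16.8, 19.6 and 13.4 CPM in KO and 6.15 and 6.23 CPM in WT (2.68-fold, adjusted p = 1.7e-04). Both genes were non-overlapping between genotypes, which was a condition of their place among the 15 highest, and Rsad2 varied more among KO libraries.

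The antigen presentation part of the list, named after its values were seen, moved by less. B2m, the light chain of MHC class I, had 53.7, 56.9 and 57.5 CPM in KO and 34.4 and 31.9 CPM in WT (1.69-fold, adjusted p = 9.8e-14). The class I heavy chain genes H2-K1 (1.43-fold) and H2-D1 (1.56-fold) were higher as well, with the reservation that these paralogues are alike in sequence. Tap2, a subunit of the peptide transporter, was lower, at 7.27, 7.13 and 6.96 CPM in KO and 9.48 and 9.95 CPM in WT (log2 -0.45 ± 0.12, adjusted p = 0.00215, but 0.0544 without WT replicate 2). Macrophage markers, whose cells also express these genes, had a summed level over the same libraries of 58.6 to 64.0 CPM in KO and 66.7 to 75.4 CPM in WT. The differences of H2-D1 and B2m were larger at 4 h than at 0 h by 0.78 and 0.40 (adjusted p = 2.7e-06 and 0.0273), the list median was 0.13 at 0 h and 0.40 at 4 h, and 9 macrophage markers shifted in the same direction over that time. The part of macrophages in these values was not tested. With ribosomal protein scaling H2-K1 was not called (0.16, adjusted p = 0.122).

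Lists of genes that act on RNA differed in how often they were called, against 32.0% of all genes. Of 20 tested muscleblind, CELF, RBFOX and other muscle splicing regulators 5 were higher and 4 lower, 45% in all (median 0.04, -0.01 by library size and -0.31 with ribosomal protein scaling). Rbfox1 had 31.0, 30.3 and 26.5 CPM in KO and 34.9 and 35.9 CPM in WT (log2 -0.28 ± 0.08, adjusted p = 0.00343), and Celf2, whose protein opposes MBNL1 on some exons, 51.9, 47.9 and 47.0 CPM in KO and 58.1 and 60.1 CPM in WT (log2 -0.27 ± 0.07, adjusted p = 0.00343). Without WT replicate 2 neither was called (adjusted p = 0.0962 for Rbfox1 and 0.113 for Celf2), nor was Rbfox1 without KO replicate 3 (0.0501). SR and hnRNP splicing factor genes were higher in 15 of 36 and lower in 1 (median 0.14, but -0.22 with ribosomal protein scaling, where 2 were higher and 19 lower), led by Tra2b at 27.0, 27.8 and 30.4 CPM in KO and 17.5 and 18.8 CPM in WT (1.57-fold, adjusted p = 9.8e-09). Of 60 tested genes of the mRNA decay machinery 9 were higher and 9 lower, 30% in all and close to the share of all genes. The 2 highest above a mean of 3 log2 CPM were Lsm3, a subunit of the ring that binds deadenylated 3′ ends, at 23.1, 24.6 and 27.1 CPM in KO and 13.6 and 12.4 CPM in WT (1.92-fold, adjusted p = 1.0e-12), and Noct, a clock-controlled phosphatase once classed as a deadenylase, at 21.5, 19.8 and 23.9 CPM in KO and 14.3 and 10.5 CPM in WT. Zfp36, tristetraprolin, which binds AU-rich elements, was lower, at 15.8, 15.1 and 14.6 CPM in KO and 21.7 and 20.8 CPM in WT (log2 -0.49 ± 0.08, adjusted p = 4.4e-06). Of 21 tested genes that bind AU-rich or GU-rich elements 5 were higher and 2 lower, 33.3% in all and close to the share of all genes. Their median was 0.09 (-0.27 with ribosomal protein scaling), and Auh (log2 0.37) and Ybx1 (log2 0.32) were among the higher ones.

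Markers of the labelled cell type were abundant. The 10 cardiomyocyte markers summed to 64981 to 67246 CPM in KO and 53139 to 57870 CPM in WT, with 5 called higher and 0 lower. Endothelial markers summed to 215 to 225 CPM in KO and 212 to 230 CPM in WT (5 of 24 higher, 7 lower), and fibroblast and matrix markers to 71.4 to 79.4 CPM in KO and 83.0 to 87.8 CPM in WT (1 of 20 higher, 9 lower, median -0.58). The pericyte and smooth muscle list summed to 2218 to 2279 CPM in KO and 2228 to 2230 CPM in WT (1 of 11 higher, 1 lower). Most of that sum was Des, the desmin that myocytes make too, at 1733, 1706 and 1755 CPM in KO and 1593 and 1553 CPM in WT, and Abcc9, a channel subunit that myocytes share, at 415, 383 and 381 CPM in KO and 506 and 537 CPM in WT. None of the 16 lymphocyte and granulocyte markers reached the count filter, and Gzma, Ms4a1, Ms4a4b, Nkg7, Retnlg and S100a8 had 0 counts in all 5 libraries. Cav1, the caveolin of endothelial and other membranes, was at 12.6, 12.7 and 12.5 CPM in KO and 24.3 and 20.6 CPM in WT (log2 -0.83 ± 0.10, adjusted p = 3.4e-10), while Flt1, an endothelial VEGF receptor, was at 14, 16.3 and 15.5 CPM in KO and 10.4 and 9.15 CPM in WT (log2 0.65 ± 0.10, adjusted p = 6.8e-07).

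The contrast at 4 h was next set beside the same contrast at the other times, which shares no library with it. All 3 contrasts came from the same fit of 17 libraries, and the labels leave unsaid if the times share animals. Calls shared between times are thus a description and not independent replication. Before the drug 4848 genes were called (36.6%) and at 8 h 3645 (27.6%). Of the 4227 genes called at 4 h, 3062 were called in the same direction at 0 h, which is 72.4% of the 4 h list and 63.2% of the 0 h list, and 7 in the opposite direction. At 8 h 2250 were called in the same direction (53.2% of the 4 h list, 61.7% of the 8 h list) and 23 in the opposite one. In all, 1923 genes were called in a single direction at the 3 times. A further 819 passed the threshold at 4 h and at neither other time, but 0 of these passed the direct test for a departure of the 4 h difference from the mean of the 0 h and 8 h differences (edgeR). How large a departure that test could find is not reported here, so the 0 does not show equal differences at the 3 times.

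That departure test called 12 of 13229 genes (0.0907%), 5 with a higher and 7 with a lower difference at 4 h, while 1384 (10.5%) had an unadjusted p under 0.05. The count depended on single libraries: it was 28 without KO replicate 1, 2 without KO replicate 2, 2 without KO replicate 3, 0 without WT replicate 1 (1072 at an unadjusted p under 0.05) and 16 without WT replicate 2. DESeq2 called 39. Among the 5 higher genes 4 encode ribosomal proteins. Rps15a differed by 0.44 at 0 h, 0.63 at 4 h and 0.08 at 8 h in log2, a departure of 0.37 ± 0.08 (adjusted p = 0.0199). At 4 h it had 86.4, 96.5 and 101 CPM in KO and 59.4 and 62.8 CPM in WT.

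Rpl35a showed the same course, with 0.44, 0.65 and 0.14 at 0, 4 and 8 h (departure 0.37 ± 0.08, adjusted p = 0.0199). Rpl26, with 0.68, 0.68 and -0.11, and Rps12, with 0.44, 0.55 and -0.08, did not differ more at 4 h than at 0 h by much; there the 8 h value stood apart. Over the 84 ribosomal protein genes the median difference was 0.38 at 0 h, 0.41 at 4 h and 0.06 at 8 h, and 30 of them had a 4 h difference called higher than the 8 h one, against 0 called higher than the 0 h one. The other gene was Fam162a, a mitochondrial protein linked to hypoxic cell death, with 90.5, 94.5 and 91.8 CPM in KO and 48.7 and 57.6 CPM in WT at 4 h (differences of 0.48, 0.79 and 0.27 at the 3 times, departure 0.42 ± 0.07, adjusted p = 0.00253).

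The 7 lower departures began with Serinc5, a multipass membrane protein known as a host factor against retroviruses, called lower in KO at 4 h and higher in KO at 8 h. It had 20.1, 19.5 and 17.4 CPM in KO and 24.0 and 24.6 CPM in WT at 4 h, and differences of -0.03, -0.35 and 0.29 at 0, 4 and 8 h (departure -0.48 ± 0.10, adjusted p = 0.0199). Txnip, which binds thioredoxin and restrains glucose uptake, had 106, 104 and 103 CPM in KO and 129 and 122 CPM in WT. Its difference was 0.46 at 0 h, -0.26 at 4 h and -0.23 at 8 h, so KO passed from above WT to below it (departure -0.38 ± 0.06, adjusted p = 6.6e-04). Within genotype Txnip had changed over the 4 h by -1.34 in KO and -0.61 in WT.

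Dad1, a subunit of the oligosaccharyltransferase, had 60.7, 61.5 and 63.4 CPM in KO and 71.3 and 70.3 CPM in WT, with differences of 0.15, -0.20 and 0.15 at the 3 times. Mgrn1, an E3 ubiquitin ligase, had 164, 153 and 151 CPM in KO and 177 and 172 CPM in WT (differences of 0.10, -0.16 and 0.17). Bckdha, a subunit of the branched-chain keto acid dehydrogenase, had 119, 120 and 110 CPM in KO and 146 and 160 CPM in WT (-0.16, -0.40 and 0.00). Alas1, the first enzyme of haem synthesis, stayed higher in KO at all times (0.35, 0.14 and 0.48 at 0, 4 and 8 h; -0.22 at 4 h with ribosomal protein scaling), and Xirp1 was at 0.03, -0.35 and -0.21. The levels of Dad1, Mgrn1, Bckdha and Alas1 changed between 0 and 4 h by 0.06 to 0.13 in KO, which no test called, and rose by 0.32 to 0.40 in WT, in log2.

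The separate 4 h differences of Dad1, Mgrn1 and Alas1 were small and missed the threshold without 1 or another library: without WT replicate 2 the adjusted p was 0.0947, 0.104 and 0.0778 in that order, without WT replicate 1 it was 0.141 for Dad1 and 0.238 for Mgrn1, without KO replicate 1 it was 0.119 for Alas1, without KO replicate 2 it was 0.0555 for Mgrn1 and 0.0673 for Alas1, and without KO replicate 3 it was 0.0733 for Mgrn1.

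**Figure D4:**
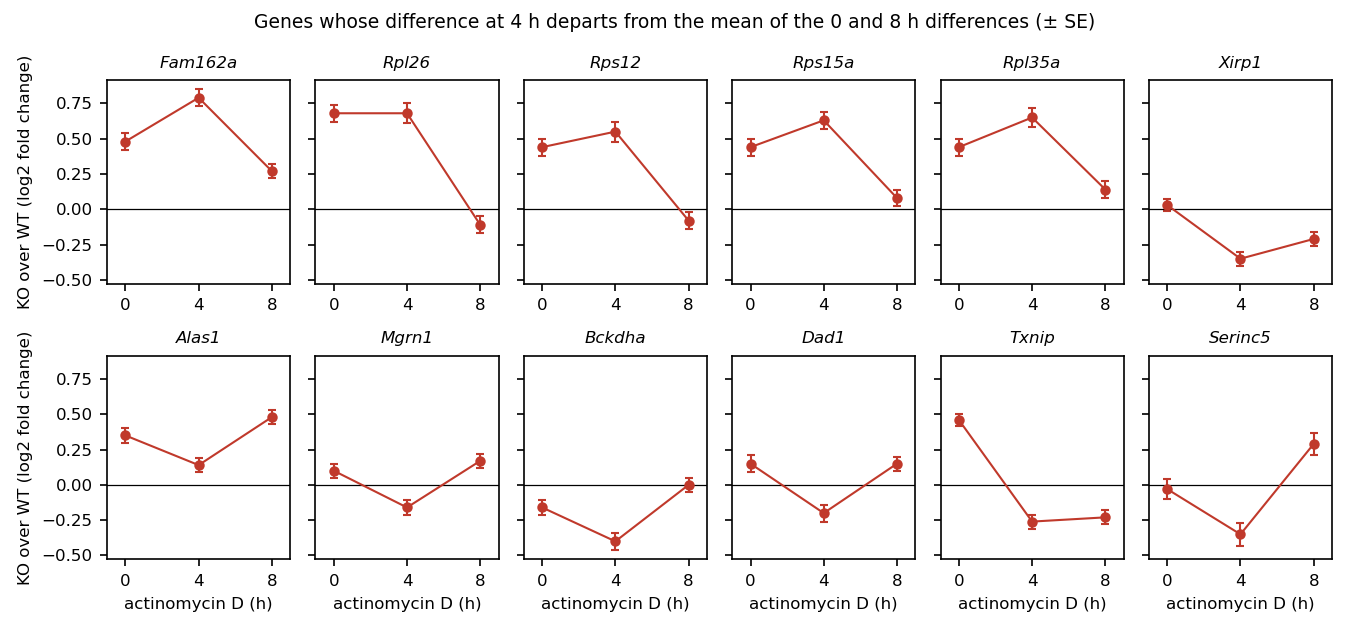
KO over WT difference (log2 fold change, ± SE from the model) at 0, 4 and 8 h of actinomycin D for the 12 genes called by the departure test. In Fam162a, Rps15a and Rpl35a the middle point is the highest, in Serinc5, Dad1, Mgrn1, Bckdha, Alas1 and Xirp1 it is the lowest, and in Txnip the 4 h and 8 h points lie together below 0. Only in Dad1 was the 4 h difference called changed against both 0 h alone and 8 h alone.

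Set against 0 h alone, the genotype difference at 4 h had changed for 46 genes (0.348%), 32 towards higher in KO and 14 towards lower. Macrophage genes made up much of the 32: 9 of the 24 tested macrophage and leukocyte markers were called and 3 of the 24 endothelial ones. Lyz2, the lysozyme of macrophages, had 8.81, 9.41 and 9.11 CPM in KO and 11.4 and 9.43 CPM in WT at 4 h. Its difference was -0.19 ± 0.12 at 4 h (adjusted p = 0.234), against -1.55 at 0 h and 0.50 at 8 h. Over the whole marker list the median difference was -1.36 at 0 h, -0.23 at 4 h and 0.40 at 8 h on the TMM scale. With ribosomal protein scaling the 4 h median was -0.59 and Lyz2 was called lower (-0.55, adjusted p = 2.1e-04). Pecam1, an endothelial adhesion molecule, similarly stood at -0.24 at 0 h and 0.38 ± 0.11 at 4 h (adjusted p = 0.00653), with 14, 11.7 and 11.1 CPM in KO and 9.19 and 9.61 CPM in WT (adjusted p = 0.0831 at 4 h without KO replicate 1 and 0.865 with ribosomal protein scaling). Against 8 h the difference had changed for 367 genes (2.77%), 177 higher and 190 lower at 4 h.

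**Figure D5:**
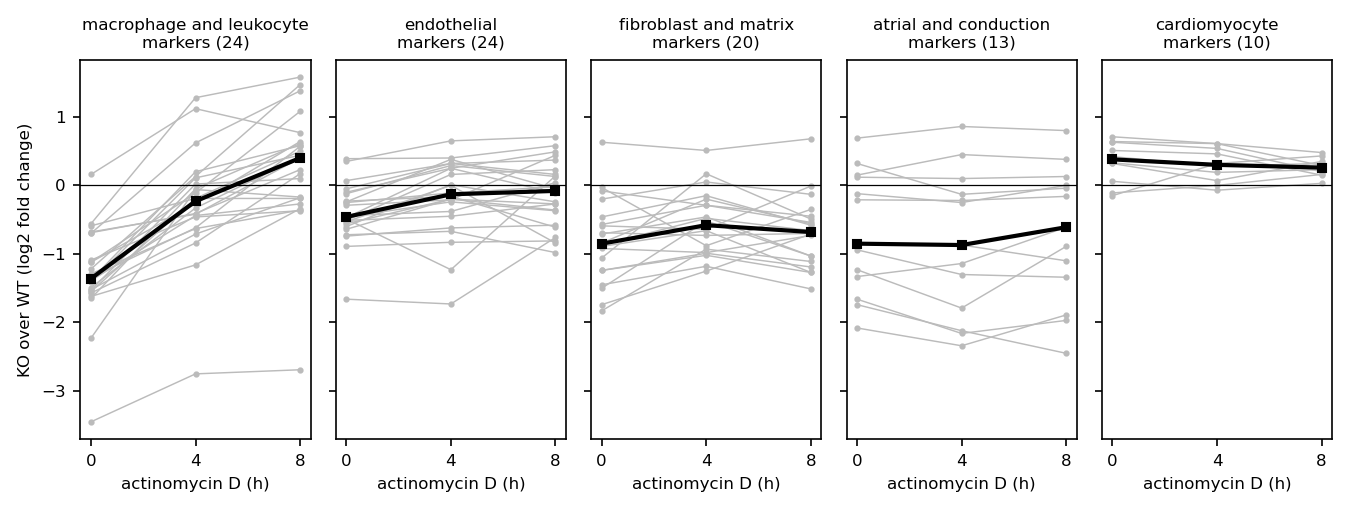
KO over WT difference (log2 fold change) at 0, 4 and 8 h for the tested markers of 5 cell types; grey lines are genes, black lines list medians, and the number of genes is in brackets. The macrophage median climbs through -1.36, -0.23 and 0.40, while the fibroblast medians of -0.85, -0.58 and -0.68 and the cardiomyocyte medians of 0.38, 0.30 and 0.26 keep their side of 0.

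Finally the differences were described by transcript features, over the 11991 tested genes with an annotated 3′ untranslated region (90.6%). In the fifth of genes with the shortest 3′ untranslated regions (median 162 bases) the median difference was 0.06, 25.2% of genes were called higher and 11.3% lower. In the fifth with the longest (median 3470 bases) it was -0.11, with 9.55% called higher and 24.5% lower. The medians of the shortest and the longest group were 0.07 and -0.08 at 0 h and 0.02 and -0.03 at 8 h. UGCU, a string bound by MBNL proteins, showed no such gradient: from the fewest to the most sites per kilobase of 3′ untranslated region the medians were 0.00, -0.05, -0.06, -0.06 and -0.03. Spearman correlations across genes, which are not independent replicates, were -0.172 for the length and -0.0280 for UGCU density, and that of the total exon length with the 4 h difference was -0.131. Between 28.7 and 37.2% of the tested genes of each autosome and the X were called, and within 5 Mb of Mbnl1 3 of 25 tested genes were higher and 5 lower.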

How the data were processed

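RNA was measured in 17 libraries of mouse ventricular myocytes, 5 of them at 4 h. The authors deposited raw read counts per gene. Tools listed in the submitters' processing notes are limma, DESeq2, featureCounts and STAR, with GRCm38 and no versions; strand and the treatment of reads with several positions are not stated there. A line of the table that names no gene (0.0139 to 0.0149% of counts in KO and 0.00772 to 0.00851% in WT at 4 h) was left out of library sizes and tests, and the authors' ratio table was not used. Genes kept by filterByExpr (13229 of 55486, 99.9% of counts) were fitted over all 17 libraries in 6 groups with edgeR 4.0.16 in R 4.3.3 (TMM, robust quasi-likelihood F test, Benjamini-Hochberg adjustment over all tested genes, threshold 0.05). CPM and fold changes were computed here. SEs were taken as the absolute log2 fold change over sqrt(F). The script was tested on simulated counts (12783 genes, 50 changed per fold size). For KO 4 h against WT 4 h, 11 genes at the smallest fold, 34 changed 1.5-fold, 37 changed 2-fold and 46 changed 4-fold were called. There were 6 false calls among 134.

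Gene lists and members were chosen with earlier results of these data known. Genes named are the 15 highest and 15 lowest called genes with a mean of at least 3 log2 CPM and no overlap, the 2 highest and 2 lowest called per list, the genes departing most at 4 h, Mbnl1, Mbnl2, Mbnl3 and Esr1. Tnnt3, Tnni2, Tpm2, Myl7, Myl4, Sln, Nr4a2, Nr4a3, B2m, H2-K1, H2-D1, Ccl7, Cxcl1 and Lyz2 were added after their values were seen. IDs were placed with GENCODE M21 (55226 of 55486 matched). Alternatives were other scalings and filters, DESeq2 1.42.0, the 5 libraries alone, the replicate number as a block and each library left out. Intervals cover counting error only.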

Additional observations from a re-analysis of the deposited data

Results flagged for a closer look

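For 12 genes the KO over WT difference at 4 h departed from the mean of the differences at 0 and 8 h in a direct test (edgeR, adjusted p under 0.05). The departure on the log2 scale was 0.42 for Fam162a, 0.40 for Rpl26, 0.38 for Rps12, 0.37 for Rps15a and 0.37 for Rpl35a. It was -0.48 for Serinc5, -0.38 for Txnip, -0.34 for Dad1, -0.33 for Bckdha, -0.30 for Mgrn1, -0.28 for Alas1 and -0.26 for Xirp1.

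A line of the count table that names no gene was used in no comparison. It held 2646, 2438 and 2599 counts in the KO libraries at 4 h and 1472 and 1335 counts in the WT libraries at 4 h, a ratio of shares of 1.79.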

How the results depend on the processing

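The 4227 calls at 4 h numbered 3334 in DESeq2 and 7766 with ribosomal protein scaling, and 2961 to 3860 when 1 library was left out. Higher calls (1931) numbered 332 with ribosomal protein scaling and 1629 to 1797 when 1 library was left out; lower calls (2296) numbered 1498 in DESeq2, 7434 with ribosomal protein scaling and 1324 to 2063 when 1 library was left out. The 12 departures from the other times numbered 39 in DESeq2, 70 by library size alone, 71 with no filter on low counts, 831 with ribosomal protein scaling and 0 to 28 when 1 library was left out; the fit of the 5 libraries at 4 h alone cannot give them. The cause was not tested. Mbnl1, Alas1 and Des turned to -0.22 each with ribosomal protein scaling, and Mbnl2 to 0.00 in DESeq2, with RLE size factors, with TMM without mitochondrially encoded genes and in the fit of the 5 libraries, to 0.01 with no filter and to 0.05 without WT replicate 1 (-0.04 to 0.05 over the libraries left out). With the replicate number as a block 4068 genes were called, 3951 of them shared, and 13 departures. The labels state no pairing of equal numbers. The KO and WT groups share 2 numbers, whose deviations from the group means correlated at 0.0286 and 0.0334. With 2 WT libraries the WT deviations mirror each other, so these values cannot tell if equal numbers were paired. Of the genes named, mt-Co1 lost its call under the block. With 2 WT libraries, leaving 1 out assumes that the other varies like the remaining groups, and the self-test called 11 of 50 genes at its smallest fold and 34 of 50 at 1.5-fold.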
